A study of Homo sapiens with 6 samples.

Results

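The diacylglycerol kinases are described here in HEK293T cells, a transformed human embryonic kidney line, carrying either a control hairpin RNA or a hairpin against *RREB1*. All 8 symbols looked up in the merged read-count table were found: *DGKA*, *DGKD*, *DGKE*, *DGKG*, *DGKH*, *DGKI*, *DGKQ* and *DGKZ*. They were taken from 23304 genes tested in 6 libraries. *DGKI* was selected on its change in this same comparison, and the others because they belong to its family, so the values of the kinases are a description and carry no p-value. The remaining isozymes of the family, *DGKB* and *DGKK*, have counts in the same table and are given beside them, which makes 10 genes in all.

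The series holds 3 libraries labelled sh-control and 3 labelled sh-RREB1. Total RNA was sequenced from cells in which a stably integrated lentiviral vector drove the hairpin, so both groups had been transduced and selected. Nothing in the labels says whether the 3 libraries of a group came from separate cultures, and any p-value then measures only the spread between these libraries, which may be technical. Reads assigned to genes numbered 23362197, 28441551 and 33044061 in the sh-control libraries and 23665991, 26145878 and 12257054 in the sh-RREB1 libraries. In sh-RREB1 library 3, 52.1% of reads mapped to several positions, against 3.66% to 7.63% in the other libraries. *RREB1* itself stood at 27.1, 25.1 and 26.5 CPM (counts scaled to 1000000 reads on genes) in the sh-control libraries and at 23.7, 24.6 and 23.1 in the others. The *RREB1* groups did not overlap, but the difference was −0.14 on the log2 scale (SE 0.13; edgeR adjusted p = 0.486). After the correction for GC content and length described below, it was −0.36 (SE 0.12; edgeR adjusted p = 0.0526). The groups are therefore named as the libraries are labelled. The line's known transcripts *VIM*, *KRT8*, *KRT18* and *NEFM* were present. *LHX1*, another of them, was low, at 1.22, 1.28 and 1.71 CPM in the sh-control libraries and 2.41, 1.87 and 1.66 in the sh-RREB1 libraries. *PAX2*, a renal transcription factor often found in these cells, reached at most 0.475 CPM. Of 6 markers of other cell types, *PTPRC*, *CD3E*, *HBB* and *MYH6* stayed between 0 and 0.191 CPM. *ALB* lay between 0 and 0.514 CPM. *COL1A1*, a collagen of fibroblasts, was at 0.347, 0.404 and 0.684 CPM in the sh-control libraries and at 2.09, 2.63 and 0.949 in the sh-RREB1 libraries (adjusted p = 0.0132, edgeR). Its part in the results below was not tested.

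Diacylglycerol kinases add a phosphate to diacylglycerol and so turn it into phosphatidic acid. Diacylglycerol is released at the membrane by phospholipase C and recruits proteins with a C1 domain, among them protein kinase C and the RASGRP activators of RAS, so the kinases both end one lipid signal and make another. The family is divided by domains. Type I (*DGKA*, *DGKB*, *DGKG*) binds calcium through EF hands, and type II (*DGKD*, *DGKH*, *DGKK*) has a pleckstrin homology domain. Type III (*DGKE*) prefers diacylglycerol that carries arachidonic acid. Type IV (*DGKI*, *DGKZ*) ends in ankyrin repeats and has a stretch resembling the MARCKS protein, and type V (*DGKQ*) has an additional C1 domain. *DGKI* is best known from brain.

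As measured, the type IV genes had the largest fold increases of the family, and the sequence just upstream of their starts is shown for that reason. Each run is the 250 bases before the start that RefSeq gives in GRCh38.p14 and that is also the start of the canonical Gencode transcript. Other annotated transcripts of both genes start farther upstream, so that the *DGKZ* window and part of the *DGKI* window lie within the spans of the genes given below. *DGKI* lies on the minus strand and its window is chr7:137846975-137847224. *DGKZ* lies on the plus strand and its window is chr11:46347213-46347462. Both are written 5′ to 3′ on the strand of the gene, with every CpG dinucleotide in capitals.
DGKI: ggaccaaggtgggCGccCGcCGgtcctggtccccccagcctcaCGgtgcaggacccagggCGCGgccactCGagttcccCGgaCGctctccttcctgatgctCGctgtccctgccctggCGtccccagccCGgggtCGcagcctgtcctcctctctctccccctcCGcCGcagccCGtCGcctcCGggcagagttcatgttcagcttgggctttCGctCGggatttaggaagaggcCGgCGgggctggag
DGKZ: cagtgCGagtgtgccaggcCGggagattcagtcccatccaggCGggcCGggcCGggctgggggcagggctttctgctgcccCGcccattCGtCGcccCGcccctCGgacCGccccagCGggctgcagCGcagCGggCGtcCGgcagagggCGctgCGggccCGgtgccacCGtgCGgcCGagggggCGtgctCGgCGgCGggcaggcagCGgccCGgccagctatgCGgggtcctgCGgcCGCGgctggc

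The *DGKI* window held 22 CpG, with an observed-over-expected ratio of 0.703 and a GC content of 71.2%. The *DGKZ* window held 32 CpG, with a ratio of 0.813 and a GC content of 79.6%. A ratio above 0.6 was found in 7 of the 9 kinases for which a window was available and in 47.5% of all 35116 RefSeq start windows. The exceptions were *DGKA*, with a ratio of 0.105, and *DGKB*, with a ratio of 0.363. The *DGKA* window was taken at a RefSeq start that lies 248 bases from the canonical start. No RNA measurement here reads the promoter itself, so the windows are given as context only.

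*DGKI* transcripts were rare in the sh-control libraries and more abundant in the sh-RREB1 libraries. The gene spans chromosome 7, 137381037 to 137847092 in GRCh38, on the minus strand. It had 38, 39 and 52 reads in the sh-control libraries and 520, 541 and 258 in the sh-RREB1 libraries. Scaled by library, this was 1.65, 1.43 and 1.62 CPM against 20.9, 20.6 and 20.4 CPM. The groups were far apart, and the libraries within each lay close together, with a mean of 1.57 ± 0.117 CPM (SD, n = 3) against 20.6 ± 0.245 (SD, n = 3). The fitted difference was 3.72 on the log2 scale (SE 0.17), or 13.2-fold. Among the 14478 genes with a mean of at least 1 CPM it was the fifth largest log2 fold change. One of the genes above it was *ENSG00000281383*, which owes its place to a single library at 172 CPM. The others were *SIRLNT*, *TTBK1* and *CEND1*, with log2 fold changes of 5.71, 5.61 and 5.42 and groups that did not overlap. They reached at most 0.130 CPM in any sh-control library.

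The other type IV gene, *DGKZ*, was already expressed in the sh-control libraries. Its CPM were 4.38, 7.45 and 9.33 there and 16.6, 22.8 and 18.8 in the sh-RREB1 libraries. The groups did not overlap, but the sh-control libraries differed among themselves, library 1 lying below the others. The log2 fold change was 1.45 (SE 0.27). *DGKZ* spans chromosome 11, 46332905 to 46380554, on the plus strand, and its exons have a GC content of 63.6%. *DGKQ*, the type V gene, has still more GC in its exons, 65.8%, and spans chromosome 4, 958887 to 986895, on the minus strand. Its CPM were 1.30, 1.84 and 1.68 against 4.58, 3.78 and 3.56, with a log2 fold change of 1.31 (SE 0.22). The groups again did not overlap. *DGKQ* shares part of its span and its strand with *SLC26A1*, a sulfate transporter gene with 2, 0 and 0 reads against 7, 17 and 3, and reads that touch both genes cannot be assigned between them.

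**Figure D1:**
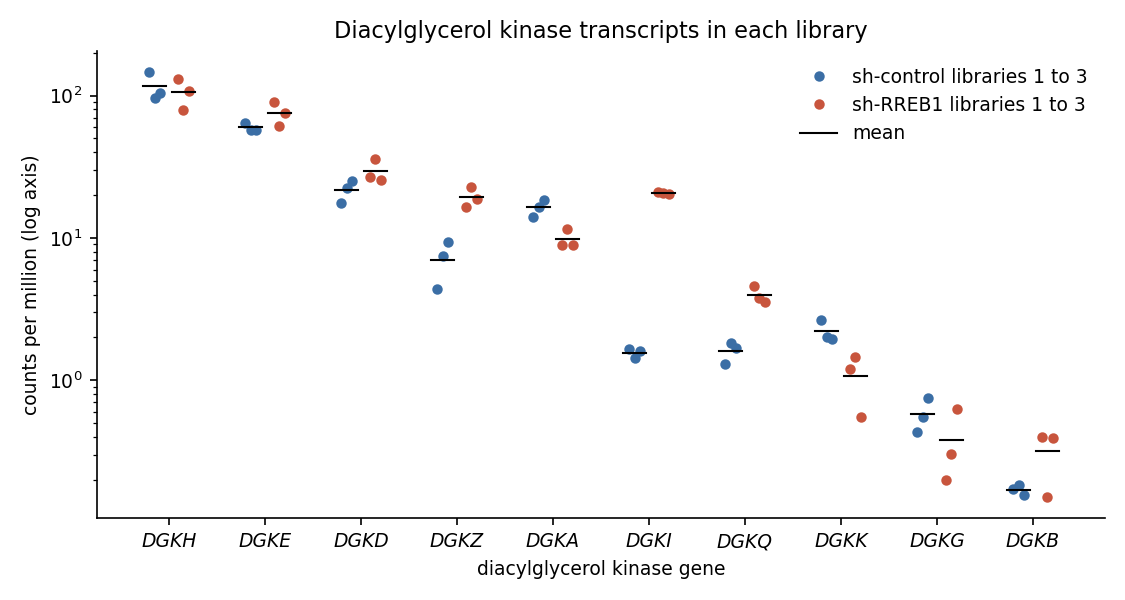
CPM (log axis) of the 10 diacylglycerol kinase genes in each library, ordered by their mean over all libraries, with sh-control libraries in blue, sh-RREB1 libraries in red and group means as black lines. The 3 red points of *DGKI* lie between 20.4 and 20.9 CPM and the 3 blue points between 1.43 and 1.65, whereas *DGKH* overlaps between groups.

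Among the type I genes, *DGKA* was lower in the libraries labelled sh-RREB1. Its CPM were 14.1, 16.5 and 18.6 against 8.96, 11.6 and 8.86, and the log2 fold change was −0.74 (SE 0.18). The groups did not overlap, but the difference was below the fold threshold used for calls. *DGKG* was close to the limit of detection, with 10, 15 and 24 reads against 5, 8 and 8, and its groups overlapped at 0.434, 0.551 and 0.746 CPM against 0.201, 0.305 and 0.633. The resulting log2 fold change, −0.76, had an SE of 0.47. *DGKG* also overlaps *ETV5* on the same strand, an ETS transcription factor gene whose log2 fold change was −1.68 (adjusted p = 0.0194, edgeR). *DGKB* had only 33 reads over all libraries, and its log2 fold change of 0.82 had an SE of 0.53.

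The type II genes did not move as one. *DGKH*, the kinase with the most reads, was at 147, 96.9 and 105 CPM against 131, 79.2 and 108. Its groups overlapped, and the log2 fold change was −0.13 (SE 0.21). *DGKD* was at 17.8, 22.4 and 25.3 CPM against 26.7, 36.0 and 25.6, which left a narrow gap between the groups. Its log2 fold change was 0.43 (SE 0.19). *DGKK*, an X-linked gene, was at 2.65, 2.02 and 1.96 CPM against 1.21, 1.45 and 0.554, with a log2 fold change of −0.96 (SE 0.31) and no overlap. The type III gene, *DGKE*, was at 64.4, 57.4 and 57.7 CPM against 90.1, 61.4 and 75.0, with overlapping groups and a log2 fold change of 0.34 (SE 0.15).

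A gene was called when its edgeR adjusted p was below 0.01 and its absolute log2 fold change above 1. By this rule 3 of the 8 kinases were called, *DGKI*, *DGKQ* and *DGKZ*, all of them higher, against 3.41% of all genes tested called in either direction and 2.71% called higher. Nothing is read from this count, because the same comparison brought *DGKI* and its family into view. The groups did not overlap in 5 of the 8 kinases, nor in 41.2% of all genes tested. The median log2 fold change of the 8 was 0.38, and that of all genes tested 0.01. After correction for GC content and length, described below, the median of the 8 was 0.01, with 4 above and 4 below 0, and that of all genes tested −0.03. In 6 fits that each left out 1 library, the difference on the log2 scale was 3.63 to 3.73 for *DGKI*, 1.17 to 1.68 for *DGKZ* and 1.15 to 1.38 for *DGKQ*. *DGKQ* and *DGKZ* were called without sh-control library 1 and not called without any one of the other 5 libraries. Those 5 fits called only 8 to 383 genes over the whole table, against 794 with every library, so the lost calls do not show smaller differences. With both strands counted together *DGKZ* was not called, at a log2 fold change of 1.46.

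Read counts varied with the GC content and the length of the gene differently from one library to the next, and removing both trends moved the values of the GC-rich kinases. Over all genes tested, 631 genes were called higher and 163 lower as measured. Once a smooth curve for GC content and one for gene length had been taken out of each library, 424 were called higher and 284 lower, which is 3.04% of those tested. *DGKI*, with 41.6% GC in its exons, then had a log2 fold change of 3.89 (SE 0.13) and was the only one of the 8 kinases called. *DGKZ* fell back to 0.17 (SE 0.12), with corrected CPM of 11.8, 10.2 and 10.5 against 11.2, 11.9 and 13.2, so that the groups overlapped. The sign of *DGKQ* turned, to −0.17 (SE 0.26), with corrected CPM of 4.18, 2.59 and 1.96 against 2.76, 1.90 and 2.35. *DGKD*, at 55.2% GC, went from 0.43 to −0.03. With the GC curve alone removed, *DGKZ* was at 0.23, *DGKQ* at −0.16, *DGKD* at 0.01 and *DGKI* at 3.94. With the length curve alone removed they were at 1.42, 1.15, 0.38 and 3.73.

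Differences in the kinases of lower GC content kept their direction apart from that of *DGKH*, which went from −0.13 to 0.06. *DGKA* went to −0.96 (SE 0.11), with corrected CPM of 17.3, 17.3 and 18.3 against 9.12, 9.40 and 8.63. The *DGKE* difference became 0.55 (SE 0.09), and its groups, which overlapped as measured, then stood at 53.3, 55.5 and 57.1 against 87.5, 74.9 and 80.2. The replicates of *DGKA* and *DGKE* lay closer together after the trend was removed. Those of *DGKQ* did so only in the sh-RREB1 group, where the SD went from 0.108 to 0.0854 CPM per kb of exon. In the sh-control group the SD of *DGKQ* rose from 0.0550 to 0.230. The GC trend also differed between the groups, since its removal lowered the log2 fold changes of the GC-rich kinases. What made it differ between libraries and between groups was not tested. Whether its removal took away only a technical effect was not tested either.

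**Figure D2:**
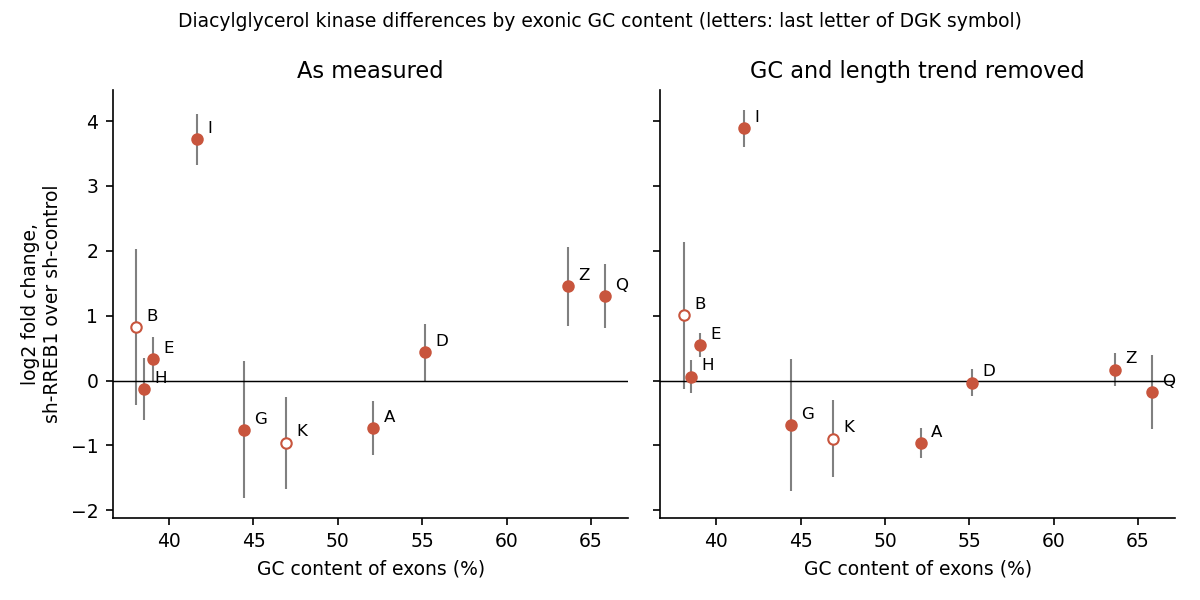
Log2 fold change of each diacylglycerol kinase (y axis, sh-RREB1 over sh-control, bars: 95% confidence intervals of the edgeR fit) against the GC content of its exons (x axis, %), as measured on the left and with the GC and length trend removed on the right; open circles are *DGKB* and *DGKK*. *DGKI* stays at 3.72 and 3.89, while *DGKZ* goes from 1.45 to 0.17 and *DGKQ* from 1.31 to −0.17.

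To compare isozymes with each other, CPM were divided by the length of the merged exons in kilobases. In the sh-control libraries *DGKH* was highest, at a level of 5.88 ± 1.35 CPM per kb (SD, n = 3), and *DGKE* followed at 5.48 ± 0.363. These 2 overlapped. *DGKD* at 2.23 and *DGKA* at 1.62 overlapped as well, followed by *DGKZ* at 0.654. *DGKQ* at 0.322 and *DGKK* at 0.295 overlapped in their turn. *DGKI* came in position 8 of 10 at 0.0999 ± 0.00749 CPM per kb, above *DGKG* at 0.0526 and *DGKB* at 0.0180, and its libraries overlapped with neither neighbour in the order.

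In the sh-RREB1 libraries *DGKI* stood in position 5, at 1.32 ± 0.0156 CPM per kb (SD, n = 3). *DGKE* at 6.91, *DGKH* at 5.36, *DGKD* at 3.01 and *DGKZ* at 1.80 were above it, and *DGKE* and *DGKH* overlapped. With the GC and length trend removed *DGKI*, at 1.40 ± 0.0316, stood in position 4, above *DGKZ* at 1.12 ± 0.0926, and it stayed in position 8 in the sh-control libraries. As measured, *DGKA* at 0.972 and *DGKQ* at 0.797 came below it and overlapped each other. *DGKK* at 0.143 did not overlap *DGKG* at 0.0346, and *DGKG* overlapped *DGKB* at 0.0334. Dividing by the canonical transcript instead, which for *DGKA* has 2727 bases against 10098 in the merged exons, put *DGKA* in position 3 of the sh-control order and left *DGKI* in position 8. In the sh-RREB1 order *DGKA* then came in position 5 and *DGKI* in position 6.

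Summed over the 10 isozymes, the level was 16.6 ± 1.07 CPM per kb (SD, n = 3) in the sh-control libraries and 20.4 ± 1.89 in the sh-RREB1 libraries. Without *DGKI* the sums were 16.5 ± 1.07 and 19.1 ± 1.88. *DGKI* made up 0.587% to 0.619% of the sum in the sh-control libraries and 5.93% to 6.97% in the others. *DGKE* and *DGKH* remained the main isozymes by this measure, with mean shares of 32.9% and 35.1% in the sh-control group and 33.7% and 26.1% in the sh-RREB1 group. Per kb of canonical transcript, *DGKA* reached 6.02 in the sh-control group, beside *DGKE* at 6.95 and *DGKH* at 6.63. In the sh-RREB1 group *DGKZ* then reached 5.41, beside *DGKE* at 8.77 and *DGKH* at 6.05. The shares thus depend on the length chosen. These shares are of RNA and say nothing of protein or of kinase activity.

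**Figure D3:**
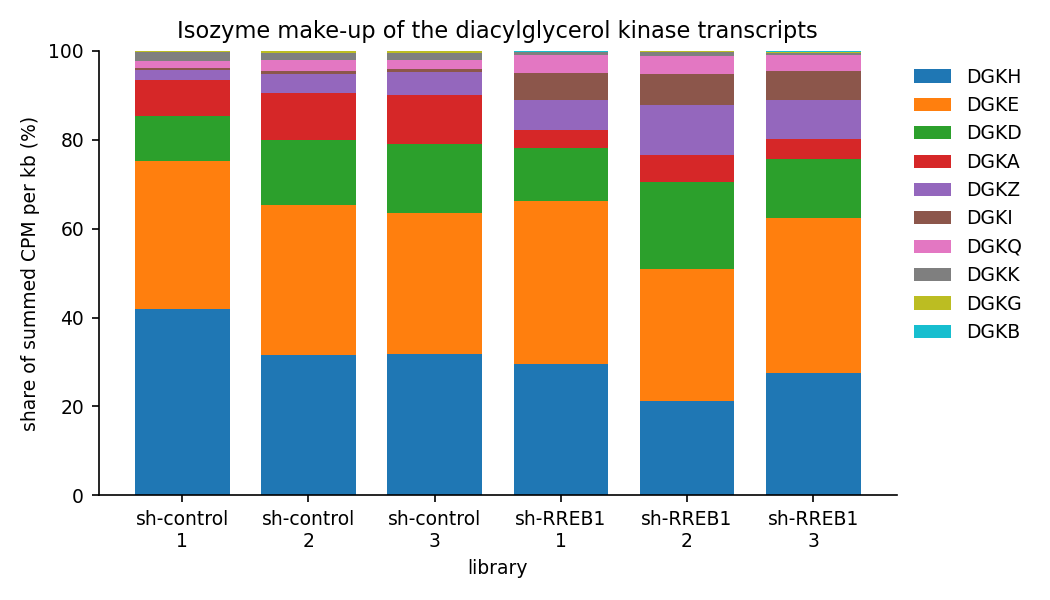
Share of each isozyme (y axis, % of the summed CPM per kb of merged exons) in each of the 6 libraries (x axis). *DGKI* is a thin band of 0.587% to 0.619% in the sh-control bars and of 5.93% to 6.97% in the sh-RREB1 bars, and *DGKE* and *DGKH* are the broadest bands.

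Reads on and around *DGKI* were examined next. No read was assigned to the exons of *DGKI* on the opposite strand in any library. For the 10 kinases such reads made up between 0% and 2.97% of the total. The annotated genes within the *DGKI* span that have a symbol or identifier in the table lie on the opposite strand and are pseudogenes. They had reads of their own. *ENSG00000279483* had 50, 76 and 91 reads against 103, 97 and 81 (log2 difference 0.84, edgeR adjusted p = 0.047). *RPL6P19* had 7, 16 and 19 against 16, 14 and 5. Protein-coding genes also overlap *DGKE* and *DGKA* on the opposite strand, which the strand-specific counts keep apart. These were *TRIM25* (log2 difference 0.65, adjusted p = 0.0149, edgeR) and *C17orf67* (0.15, adjusted p = 0.664) at *DGKE*, and *PYM1* (0.20, adjusted p = 0.583) at *DGKA*. None of them was called. The long noncoding RNA gene *ENSG00000273973* lies within the span of *DGKA* on the same strand, and reads that touch both genes cannot be assigned between them. It had 5, 18 and 22 reads against 7, 14 and 5 (log2 difference −0.39, edgeR adjusted p = 0.629). The nearest protein-coding neighbours did not show a difference of the size seen in *DGKI*. *PTN*, a secreted growth factor gene 37.3 kb away at lower coordinates, was at 0.174, 0.514 and 0.591 CPM against 0.442, 0.458 and 0.475, a log2 difference of 0.06 (adjusted p = 0.948, edgeR). *CREB3L2*, a membrane-bound transcription factor gene 27.9 kb away at higher coordinates, was at 33.5, 26.4 and 25.7 CPM against 47.3, 58.3 and 52.1. The log2 difference of 0.88 reached an edgeR adjusted p of 0.00736, but it was below the fold threshold.

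The 5 genes whose profile over the 6 libraries was most like that of *DGKI* were *MAP6*, *DPM3*, *CLCN4*, *SYT11* and *RHOB*. Likeness was measured as the root mean square difference of centred log2 CPM, over 14477 genes with a mean of at least 1 CPM. It was 0.378 for *MAP6*, 0.413 for *DPM3*, 0.415 for *CLCN4*, 0.438 for *SYT11* and 0.468 for *RHOB*, and the median gene differed by 1.87. *MAP6*, which encodes a microtubule-stabilizing protein, was at 1.61, 1.98 and 1.27 CPM against 12.9, 17.8 and 13.8. *SYT11*, a synaptotagmin gene, was at 11.5, 16.0 and 16.0 CPM against 102, 119 and 111. These points share libraries and depth, and with 2 groups any gene with a large difference in the same direction scores as alike.

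Genes of the diacylglycerol pathway were then examined in 7 lists. These hold genes that supply, use or bind diacylglycerol, other producers of phosphatidic acid, and genes for its return to phosphoinositide. Of 70 genes, 64 had at least 10 reads in total and were tested, and 4 of the 64, or 6.25%, were called, against the 3.41% of all genes tested. The lists were chosen with earlier results of these data known, so nothing is read from this share. For the same reason the p-values given for their genes are descriptive. *PLCD3*, *DAGLA* and *PIP5K1C* rose and *PRKCB* fell. The median log2 fold change of the 64 was 0.05. With the GC and length trend removed 3 were called, namely *PLCD3*, *PRKCB* and *RASGRP3*. Some lists below also give a count of genes with an unadjusted edgeR p under 0.05. The share of such genes over all genes tested was not worked out, so nothing is read from these counts.

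Phospholipase C enzymes release diacylglycerol from membrane phosphoinositide. Of 11 tested, 1 rose by the rule used. *PLCD3*, a delta-class enzyme, was at 1.65, 2.68 and 3.79 CPM against 11.1, 15.4 and 11.6. The log2 fold change came to 2.21 (SE 0.29, edgeR adjusted p = 0.00357), and it was 1.29 with the trend removed. *PLCG1*, the growth factor-responsive enzyme with the highest mean of the list, was at 43.4, 65.3 and 70.4 CPM against 58.8, 77.1 and 64.5, with overlapping groups (log2 fold change 0.16, edgeR adjusted p = 0.605).

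Other producers of diacylglycerol are the lipins, which remove the phosphate from phosphatidic acid, the lipid phosphate phosphatases and the sphingomyelin synthases. By edgeR 0 of 7 tested were called, 4 had an unadjusted p under 0.05, and DESeq2 called 0. The highest of them, the sphingomyelin synthase *SGMS2*, was at 44.5, 41.0 and 39.2 CPM against 37.1, 27.2 and 35.7 (log2 fold change −0.32, edgeR adjusted p = 0.173).

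Consumers of diacylglycerol other than the kinases include diacylglycerol lipases, which release the endocannabinoid 2-arachidonoylglycerol, and enzymes that build triglyceride or phospholipid. Of 7 tested, 1 rose. The lipase *DAGLA* was at 0.564, 1.14 and 1.31 CPM against 3.86, 5.03 and 3.32, with no overlap. It was 4.01-fold higher (log2 SE 0.31, edgeR adjusted p = 0.00535), and its log2 fold change was 0.87 and no longer called with the trend removed. *SELENOI*, an ethanolamine phosphotransferase, had the highest mean. It was at 216, 176 and 174 CPM against 204, 151 and 189, a log2 difference of −0.06 (edgeR adjusted p = 0.818).

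Phosphatidic acid is also made by phospholipase D, by acyltransferases and by the mitochondrial lipid kinase *AGK*. By edgeR 0 of these 8 genes were called, 5 had an unadjusted p under 0.05, and DESeq2 called 1. *AGK*, the highest, was at 117, 134 and 128 CPM against 105, 123 and 108 (log2 fold change −0.17, edgeR adjusted p = 0.315). The list's largest difference was that of the acyltransferase *AGPAT2*, at 1.08, 2.68 and 2.61 CPM against 5.71, 8.31 and 5.70, whose log2 fold change of 1.62 went to 0.15 with the trend removed; its edgeR adjusted p was 0.0127, and it is named here after its values were seen.

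The genes listed for the return of phosphatidic acid to phosphoinositide numbered 12, and 1 rose. They include the transfer protein genes *PITPNA* and *PITPNB* beside the enzymes. *PIP5K1C*, which makes the substrate of phospholipase C, was at 1.13, 1.98 and 1.90 CPM against 8.20, 8.24 and 6.80, with no overlap. This gave a log2 fold change of 2.20 (SE 0.24, edgeR adjusted p = 0.00205), and it was 0.88 and no longer called with the trend removed. Its relative *PIP5K1A* was far more abundant, with 300.2, 275 and 276 CPM against 191, 223 and 195 (log2 fold change −0.48, edgeR adjusted p = 0.0161).

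Of the 10 protein kinases with a C1 domain that binds diacylglycerol, 1 fell. *PRKCB*, a conventional protein kinase C, was at 5.69, 6.09 and 4.88 CPM against 1.37, 1.53 and 2.06. The difference on the log2 scale was −1.78 (SE 0.22, edgeR adjusted p = 0.00321), and it was −1.74 and still called with the trend removed. The protein kinase D gene *PRKD3* was highest, at 248, 201 and 201 CPM against 195, 161 and 189 (log2 fold change −0.25, edgeR adjusted p = 0.195).

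The list of other diacylglycerol effectors holds the RASGRP activators of RAS, the chimaerins, the UNC13 priming factors of vesicles and some TRPC channels. By edgeR 0 of 9 tested were called as measured, 3 had an unadjusted p under 0.05, and DESeq2 called 1. *RASGRP3* was at 1.43, 1.36 and 1.31 CPM against 0.402, 0.648 and 0.396. Its log2 fold change was −1.45 (edgeR adjusted p = 0.0125), and it was −1.27 (adjusted p = 0.00971) and called with the trend removed, a call kept in 1 of the 6 fits that then left out a library. *UNC13B* had the highest mean, with 146, 188 and 186 CPM against 126, 178 and 150 (log2 fold change −0.20, edgeR adjusted p = 0.414). The calls on *PLCD3*, *DAGLA* and *PRKCB* were kept without sh-control library 1 or 3 and lost without sh-control library 2 or any 1 of the sh-RREB1 libraries. That on *PIP5K1C* was also kept without sh-RREB1 library 2. The fits that lost these calls called 8 to 136 genes over the whole table, and the log2 fold changes stayed at 1.93 to 2.51 for *PLCD3*, 1.71 to 2.21 for *DAGLA*, 1.97 to 2.31 for *PIP5K1C* and −1.94 to −1.66 for *PRKCB* with any library left out. With the trend removed *PLCD3* and *PRKCB* were called in all 6 such fits.

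**Figure D4:**
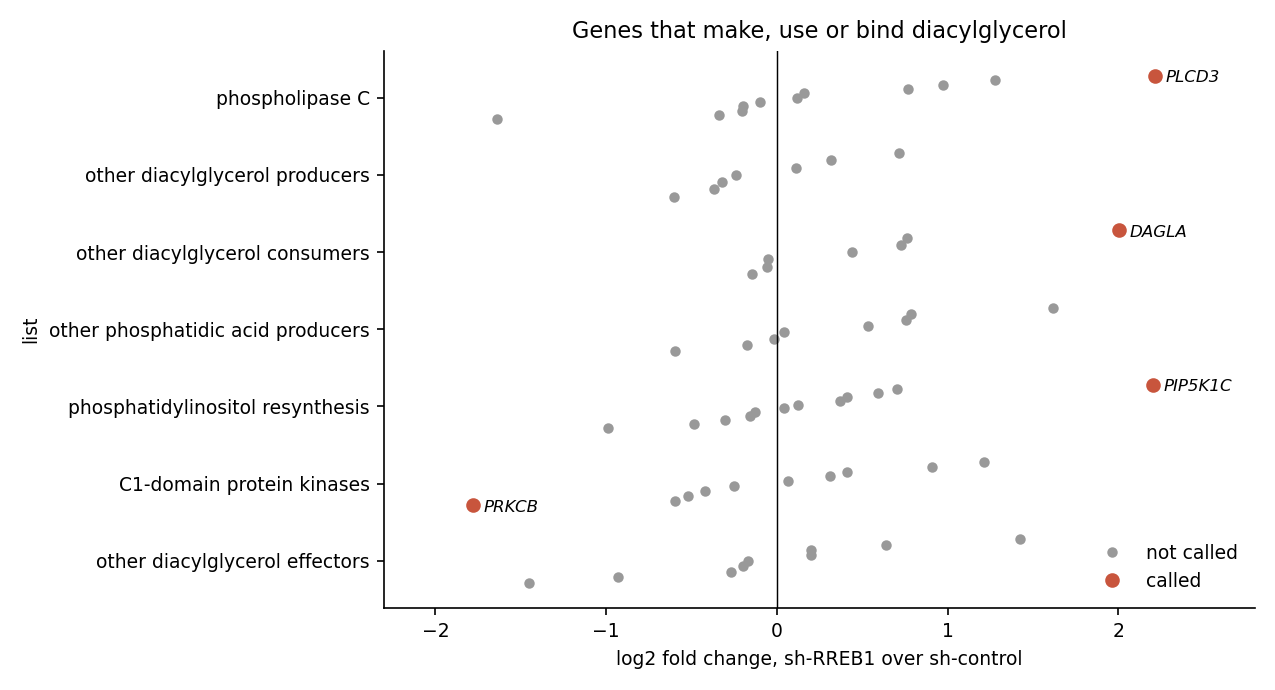
Log2 fold change (x axis, sh-RREB1 over sh-control) of the 64 tested genes of the diacylglycerol pathway lists, by list (y axis). The lists include genes of phosphatidic acid and phosphoinositide synthesis. Called genes are in red and the others in grey. Vertical offsets within a list only separate the points. *PLCD3* at 2.21, *PIP5K1C* at 2.20 and *DAGLA* lie farthest to the right, and *PRKCB* at −1.78 farthest to the left.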

How the data were processed

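RNA was sequenced from 3 sh-control and 3 sh-RREB1 HEK293T libraries, made with a stranded total RNA kit. The deposited read counts per gene were made by the authors with STAR on hg38 and come as unstranded and strand-specific columns; the strand-specific column that matches the genes was used, and depth ranged from 12257054 to 33044061 reads on genes. The diacylglycerol kinase members and all lists were chosen with earlier results of these data known. Genes with at least 10 reads in total were tested with edgeR 4.0.16 (R 4.3.3), with TMM scaling, the quasi-likelihood test and Benjamini-Hochberg adjustment over all genes tested, without a replicate block. A call needed both an adjusted p under 0.01 and a log2 fold change beyond 1 in either direction. CPM are counts scaled to 1000000 reads on genes after TMM. GC content and lengths came from Gencode exons on GRCh38, in a later release than the one the paper names for the counts. What this does to the levels per kb was not tested. The GC and length trend was a spline with 5 degrees of freedom per term, fitted in each library and used as an offset. The fits were tested on simulated data. Named beside the 10 kinases and RREB1 are every called gene and the gene of highest mean CPM of each list, the 5 genes most like DGKI, and genes overlapping a kinase or next to DGKI. Alternatives were DESeq2 1.42.0, upper-quartile scaling, a minimum of 1 read, both strands together, a replicate block, the trend removed, and each library left out. The trend removed with a library left out, the GC or the length term alone, and levels per canonical transcript or with the trend removed, were added after the data were seen. The closest replicates differed by a chi-square of 4.74 per degree of freedom, so none was a duplicate. The merged table repeats the library counts, and the kinase symbols were looked up in it. The gene symbols used in the fits came from a reference list of gene names.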

Additional observations from a re-analysis of the deposited data

How the results depend on the processing

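The count of genes called, 794, was 1647 with DESeq2, 1801 with a minimum of 1 read, 1686 with a replicate block and 1227 with the length trend alone removed; it stayed within 1.5 times with upper-quartile scaling (1021), both strands together (608), the trend removed (708) and the trend removed with a replicate block (874). Leaving out 1 library gave 8 to 1117. Of the 8 kinases 3 were called, 2 with both strands together (*DGKI* and *DGKQ*), 1 with the trend removed, with or without the replicate block, 1 with the GC trend alone removed, and 1 to 3 with a library left out. Of the pathway genes 4 were called, 9 with DESeq2 or the replicate block, 7 with upper-quartile scaling, 8 with a minimum of 1 read or with the length trend alone removed, 2 with the GC trend alone removed and 0 to 6 with a library left out. The *DGKI* log2 fold change of 3.72 was 3.63 with upper-quartile scaling, 3.89 with the trend removed and 3.89 with the replicate block as well, 3.94 with the GC trend alone removed, and 3.63 to 3.73 with a library left out. That of *DGKQ* reversed to −0.17 with the trend removed, to −0.26 with the replicate block as well and to −0.16 with the GC trend alone removed. With the trend removed and a library left out, *DGKI* ranged from 3.86 to 3.96, *DGKZ* from 0.11 to 0.22 and *DGKQ* from −0.45 to 0.05. Deviations of same-numbered libraries correlated at 0.50, 0.43 and −0.28 over 14333 genes. Those of differently numbered libraries ran from −0.58 (sh-control 1 with sh-RREB1 2) to 0.56 (sh-control 3 with sh-RREB1 2). Replicate numbers were not used as pairs in the main fit, and these values do not settle whether they pair the libraries. *DGKG* and *DGKB*, with 70 and 33 reads in all, were limited by depth.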
